A study of Homo sapiens with 9 samples.

Results

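The genes described are the ubiquitin-conjugating enzymes of the UBE2 series, taken as every row of the deposited count table whose gene symbol begins with UBE2 followed by a letter. The rule used names only and found 32 of the 11350 genes in the table. They were measured by RNA-seq in HCT116 cells, a human colorectal carcinoma line, in 3 states with 3 replicate libraries each and without any treatment. HUWE1-P cells are the parental line. In HUWE1-WT cells the codon of the catalytic cysteine of the endogenous ubiquitin ligase HUWE1 was replaced by a cysteine codon, and in HUWE1-CS cells it was replaced by a serine codon. Both edited lines carry the same repair cassette, with a P2A peptide and a blasticidin resistance gene, and both were grown from single cells after puromycin and blasticidin selection, whereas HUWE1-P cells were not edited. The sources used here do not say whether a line's replicates share a clone, so that a difference between clones and an effect of the serine codon cannot be told apart, and p-values measure the spread between these libraries.

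Ubiquitin-conjugating enzymes, or E2 enzymes, take activated ubiquitin or a ubiquitin-like protein from an E1 enzyme onto a cysteine and pass it on with the help of an E3 ligase. With RING ligases the E2 passes ubiquitin directly to the substrate and often sets the kind of chain that is built. With HECT ligases such as HUWE1 ubiquitin first moves from the E2 to the catalytic cysteine of the ligase, and enzymes of the UBE2D family and UBE2L3 are well known E2 partners of this ligase class.

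Library totals lay between 1610984 and 2060349 counts, and 3 counts corresponded to between 1.45 and 1.86 CPM, the normalized count relative to a library's total after scaling by TMM factors. Member genes were counted well at this depth: 31 of 32 had at least 10 counts in every library and 25 had at least 50, and the lowest value was 9 counts for UBE2D4. The HUWE1 mRNA itself measured 561, 545 and 522 CPM in HUWE1-P, 498, 453 and 455 CPM in HUWE1-WT, and 345, 323 and 339 CPM in HUWE1-CS libraries. It was lower in HUWE1-CS than in HUWE1-P cells by a log2 fold change of -0.69 (SE 0.0650, adjusted p = 1.06e-15) and than in HUWE1-WT cells by -0.48 (SE 0.0659, adjusted p = 4.68e-09). A count per gene does not show the edited codon. Of 11 epithelial marker genes 9 had a row, with a summed level of 3975 to 4787 CPM over the 9 libraries. Rows were found for 1 of 7 fibroblast markers (COL1A1), 1 of 7 leukocyte markers (CD68, 6.39 to 14.5 CPM) and 0 of 5 endothelial markers. COL1A1 measured 19.2 to 24.7 CPM in HUWE1-P, 18.0 to 25.6 CPM in HUWE1-WT and 8.71 to 14.8 CPM in HUWE1-CS libraries and was called lower in HUWE1-CS cells against both controls (-0.96, adjusted p = 0.000901, and -0.88, adjusted p = 0.00346). Its part in the results was not tested.

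UBE2H fell in HUWE1-CS cells and UBE2L6 and UBE2Z rose, each against both control lines. UBE2S was called higher against HUWE1-P but not HUWE1-WT cells, and UBE2M against HUWE1-WT but not HUWE1-P cells. A gene was called where edgeR's quasi-likelihood test over all 11350 genes gave a p and an adjusted p of at most 0.01. Against HUWE1-P cells 4 of 32 members were called, 12.5% beside 17.0% of all genes. 3 were higher and 1 was lower, where 8.46% and 8.58% of all genes were called in those directions. Against HUWE1-WT cells 4 of 32 were called again, beside 15.5% of all genes, 3 of them higher and 1 lower, beside 7.42% and 8.08%. Both shares of called members lie below those of the whole table, whereas the share called higher, 9.38% in each comparison, lies above. With 32 members these gaps rest on few genes and were not tested. Against HUWE1-P cells the members had a median log2 fold change of 0.01, and all genes one of -0.01. The median size of the change, regardless of sign, was 0.11 for the members and 0.22 for all genes. Against HUWE1-WT cells the medians were 0.05 for the members and -0.00059 for all genes, and the median sizes were 0.16 and 0.22. The median standard error against HUWE1-P cells was 0.107 for the members and 0.151 for all genes.

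**Figure D1:**
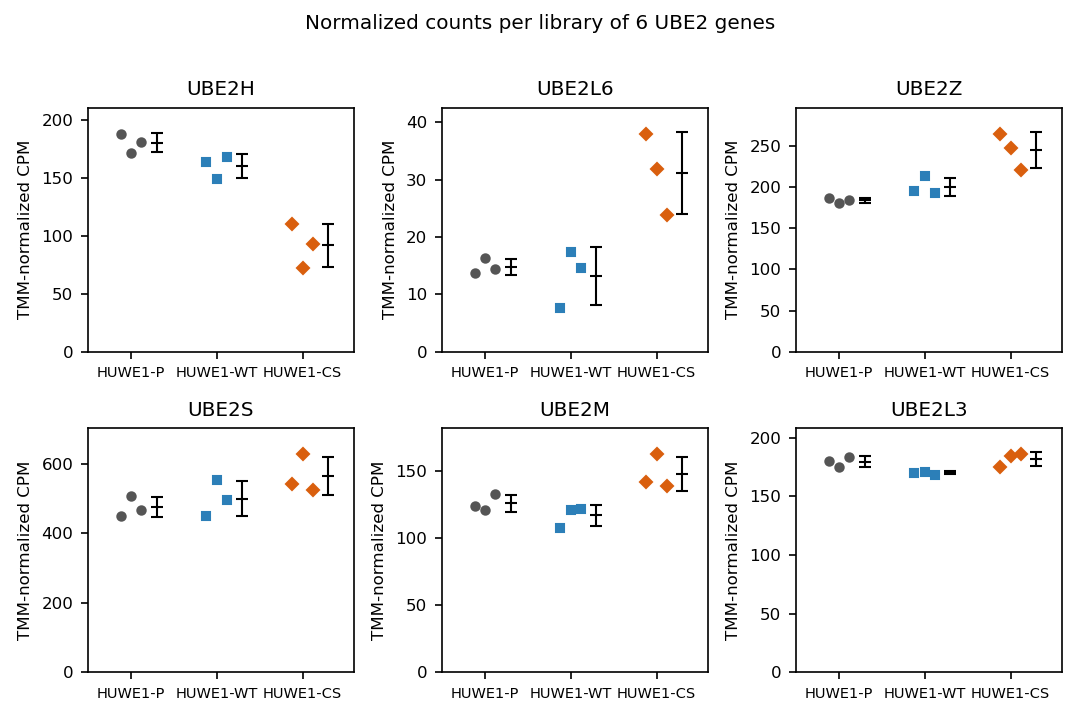
TMM-normalized CPM of 6 UBE2 genes in the 9 libraries; each symbol is 1 library of HUWE1-P, HUWE1-WT or HUWE1-CS cells, and the bar beside it is the mean ± SD of 3 libraries. The HUWE1-CS libraries of UBE2H lie at 72.6 to 109.8 CPM, below all controls, and those of UBE2L6 at 23.8 to 38.0 CPM, above all controls. Those of UBE2L3 overlap the HUWE1-P libraries and lie above the HUWE1-WT libraries.

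UBE2H is the E2 enzyme that works with the CTLH ligase, the relative of the yeast GID complex. The gene (Entrez 7328) lies on the minus strand at chr7:129470572-129592800 of GRCh37. It measured 188, 172 and 181 CPM in HUWE1-P libraries, 164, 149 and 168 CPM in HUWE1-WT libraries, and 109.8, 72.6 and 92.9 CPM in HUWE1-CS libraries. Every HUWE1-CS library lay below all 6 controls, and the highest of them was well under the lowest control. The difference against HUWE1-P cells was -0.98 on the log2 scale (95% interval -1.16 to -0.79, adjusted p = 5.85e-15), or 1.97-fold lower. Against HUWE1-WT cells it was -0.81 (-0.997 to -0.62, adjusted p = 6.35e-11), or 1.75-fold lower. HUWE1-WT cells gave a value of -0.17 against HUWE1-P cells (SE 0.0856), which was not called (adjusted p = 0.901). The gene was called in both HUWE1-CS comparisons under every alternative that was run, the fits without each library included.

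The ligase to which UBE2H belongs was listed by 11 measured subunits and associated proteins. Against HUWE1-P cells they had a median log2 fold change of 0.15, and 2 of 11 were called, 18.2% beside 17.0% of all genes. MAEA, a RING subunit of the complex, rose by 0.33 (SE 0.0862, adjusted p = 0.00221) and YPEL5 by 1.016 (SE 0.295, adjusted p = 0.00570). Both were picked out because they were called, and they kept the call in 17 and 15 of 21 alternatives, DESeq2 not among them. Against HUWE1-WT cells 0 of the 11 genes were called by edgeR, limma-voom or DESeq2, with 3 at an unadjusted p under 0.05 in edgeR. The 10 measured genes nearest to UBE2H on chromosome 7 had a median log2 fold change of -0.05, with 1 called higher and 2 called lower.

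UBE2L6 is the E2 enzyme of ISG15, a ubiquitin-like protein that interferon induces, and can also carry ubiquitin. The gene (Entrez 9246) lies on the minus strand at chr11:57319129-57335757 of GRCh37. Its levels were low, at 13.7, 16.3 and 14.5 CPM in HUWE1-P, 7.53, 17.5 and 14.5 CPM in HUWE1-WT, and 38.0, 31.8 and 23.8 CPM in HUWE1-CS libraries. The 3 HUWE1-CS libraries lay above all 6 controls, while replicate 1 of HUWE1-WT stood below the other controls. Against HUWE1-P cells the gene rose by 1.07 on the log2 scale (95% interval 0.65 to 1.48, adjusted p = 3.53e-05), or 2.1-fold. Against HUWE1-WT cells it rose by 1.23 (0.80 to 1.66, adjusted p = 4.74e-06), or 2.34-fold, and leaving out libraries moved this value between 0.95 and 1.5. It was called in both comparisons under every alternative that was run.

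UBE2L6 and UBE2Z were called higher against both controls, and their promoters are shown for that reason. RefSeq promoter windows on GRCh38.p14, each holding 250 bases before and 50 after a transcription start, were matched by gene identifier for 24 of the 32 members, with 35 windows in all. Windows of UBE2B, UBE2C, UBE2H, UBE2MP1, UBE2Q1, UBE2V2 and UBE2W are not shown here. UBE2L6 has windows at chr11:57567886-57568185 and chr11:57567623-57567922, both on the minus strand. UBE2Z has a window at chr17:48908157-48908456 on the plus strand. Sequences are written 5′ to 3′ on the strand of the gene, and capitals mark a GC box (GGGCGG) or a CCAAT box (CCAAT) on either strand.
UBE2L6, the upstream start: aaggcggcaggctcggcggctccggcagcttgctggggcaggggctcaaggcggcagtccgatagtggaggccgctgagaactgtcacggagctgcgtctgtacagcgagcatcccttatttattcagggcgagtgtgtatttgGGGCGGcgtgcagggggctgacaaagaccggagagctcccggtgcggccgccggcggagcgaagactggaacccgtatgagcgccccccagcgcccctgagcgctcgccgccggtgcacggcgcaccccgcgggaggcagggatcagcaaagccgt
UBE2L6, the downstream start: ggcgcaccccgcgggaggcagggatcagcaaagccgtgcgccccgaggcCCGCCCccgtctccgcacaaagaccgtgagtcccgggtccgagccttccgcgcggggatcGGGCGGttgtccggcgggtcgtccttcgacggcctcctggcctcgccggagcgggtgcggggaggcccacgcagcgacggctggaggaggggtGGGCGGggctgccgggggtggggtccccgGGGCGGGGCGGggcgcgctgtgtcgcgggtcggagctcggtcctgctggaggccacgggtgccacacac
UBE2Z: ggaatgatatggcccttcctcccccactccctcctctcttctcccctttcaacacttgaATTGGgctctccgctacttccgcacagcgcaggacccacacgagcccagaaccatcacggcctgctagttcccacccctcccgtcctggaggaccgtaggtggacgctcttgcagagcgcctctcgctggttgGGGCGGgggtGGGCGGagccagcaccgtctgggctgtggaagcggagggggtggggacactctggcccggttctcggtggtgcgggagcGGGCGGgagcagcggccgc

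The upstream window of UBE2L6 held 1 GC box and the downstream window 5, of which the last 2 overlap, and neither held a CCAAT box. The window of UBE2Z held 3 GC boxes and 1 CCAAT box. Among all 35116 RefSeq windows, 45.0% held a GC box and 34.6% a CCAAT box, and among the members 28 of 35 windows held a GC box and 10 of 35 a CCAAT box. The core of an interferon-stimulated response element, taken as GAAA followed after 2 bases by another GAAA, was in neither window of UBE2L6. It occurred in 3.57% of all windows and, among the members, in 1 window of UBE2D3. The E-box CACGTG occurred in 7.26% of all windows and in 0 of 35 member windows. A match to these letters describes the sequence and is no evidence that a factor binds.

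Among the other genes of ISG15 conjugation, ISG15 was called against HUWE1-WT cells, with a log2 fold change of 0.37 (SE 0.112, adjusted p = 0.00804). It was not called against HUWE1-P cells (0.19, SE 0.108, adjusted p = 0.194). ISG15 kept the call against HUWE1-WT cells in 11 of 21 alternatives, DESeq2 and limma-voom not among them. Its level was 81.4 ± 9.48 CPM in HUWE1-P, 71.8 ± 2.53 CPM in HUWE1-WT and 92.9 ± 11.7 CPM in HUWE1-CS cells (SD, n = 3 each). HERC5, the main ligase for ISG15, gave 0.32 (SE 0.212) and 0.30 (SE 0.213) against the respective controls and was not called. The protease USP18, which removes ISG15, gave -0.53 (SE 0.355) and -0.64 (SE 0.352) at levels of 5.10 to 11.01 CPM over the 9 libraries and was not called. Of 6 measured genes of the ISG15 system, 0 were called against HUWE1-P cells by edgeR, limma-voom or DESeq2. In that comparison 0 had an unadjusted p under 0.05. Against HUWE1-WT cells 1 was called, 16.7% beside 15.5% of all genes. The medians were 0.14 and 0.15.

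UBE2L3, the closest relative of UBE2L6 and a partner of HECT and RBR ligases, did not pass the test. It measured 180.0, 175 and 184 CPM in HUWE1-P, 170.3, 171 and 169 CPM in HUWE1-WT, and 175, 184 and 186 CPM in HUWE1-CS libraries. HUWE1-CS libraries overlapped those of HUWE1-P, and every HUWE1-WT library lay below both. The interval of the log2 fold change ran from -0.14 to 0.17 against HUWE1-P and from -0.06 to 0.25 against HUWE1-WT cells. Per length of exon, the ratio of UBE2L6 to UBE2L3 was 0.145 to 0.178 in HUWE1-P, 0.0846 to 0.195 in HUWE1-WT and 0.245 to 0.415 in HUWE1-CS libraries. The ratio was therefore higher in every HUWE1-CS library than in any control, and UBE2L3 remained the more abundant mRNA in all 9.

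UBE2Z is charged with ubiquitin by the E1 enzyme UBA6 and not by UBA1. The gene (Entrez 65264) lies on the plus strand at chr17:46985769-47006418 of GRCh37. It measured 186, 180.2 and 185 CPM in HUWE1-P, 195, 213 and 193 CPM in HUWE1-WT, and 265, 248 and 221 CPM in HUWE1-CS libraries. All HUWE1-CS libraries lay above all controls, though replicate 3 was close to the highest HUWE1-WT library. The log2 fold change was 0.41 against HUWE1-P (95% interval 0.26 to 0.56, adjusted p = 8.95e-06) and 0.29 against HUWE1-WT cells (0.14 to 0.43, adjusted p = 0.00240), or 1.33-fold and 1.22-fold. The call against HUWE1-WT cells was lost with DESeq2 (adjusted p = 0.0177), without HUWE1-WT replicate 1 (0.0123), without HUWE1-WT replicate 3 (0.0232) and without HUWE1-CS replicate 1 (0.0451). The 10 nearest measured genes on chromosome 17 had medians of -0.10 and 0.13 in these comparisons.

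UBE2S and UBE2C serve the anaphase-promoting complex (APC/C) in mitosis, where UBE2C places the first ubiquitins and UBE2S extends K11-linked chains. UBE2S (Entrez 27338, chr19:55911113-55919156, minus strand, GRCh37) measured 451, 508 and 469 CPM in HUWE1-P, 451, 553 and 497 CPM in HUWE1-WT, and 542, 627 and 524 CPM in HUWE1-CS libraries. The HUWE1-CS libraries lay above all HUWE1-P libraries but overlapped those of HUWE1-WT. UBE2S was called against HUWE1-P cells, with a log2 fold change of 0.25 (95% interval 0.12 to 0.38, adjusted p = 0.00280), and not against HUWE1-WT cells (0.17, 0.04 to 0.30, adjusted p = 0.0427). The call was lost with DESeq2 (adjusted p = 0.0189), without HUWE1-P replicate 1 (0.0416), without HUWE1-P replicate 3 (0.0201) and without HUWE1-CS replicate 2 (0.0648). The transcription unit overlaps RPL28 on the opposite strand, without shared exonic bases. On the same strand its exons overlap those of a lincRNA, CTD-2105E13.13, and reads of the shared bases could belong to either. Whether the counting used strand is not given in the sources used here.

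UBE2C measured 119, 119 and 105 CPM in HUWE1-P, 97.9, 128 and 106 CPM in HUWE1-WT, and 118, 136 and 133 CPM in HUWE1-CS libraries. It gave 0.18 (SE 0.0953) against HUWE1-P and 0.22 (SE 0.0963) against HUWE1-WT cells and was called in neither comparison. Of 17 measured APC/C genes 3 were called in each comparison, 2 higher and 1 lower. That is 17.6% of the list, near the 17.0% and 15.5% of all genes called. CDC27, a subunit of the TPR repeat type, fell by 0.36 (adjusted p = 0.000153) and 0.42 (adjusted p = 1.26e-05) against HUWE1-P and HUWE1-WT cells, and CDC16, another such subunit, rose by 0.42 (adjusted p = 0.00214) and 0.45 (adjusted p = 0.00109). CDC27 kept its calls in all 21 alternatives and CDC16 in 17 and 18, DESeq2 not among them. The other gene called higher, picked out for that call, was ANAPC16 against HUWE1-P (0.45) and ANAPC11 against HUWE1-WT cells (0.41), calls that held in 19 and 18 of 21 alternatives, DESeq2 not among them.

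Enzymes of the other ubiquitin-like proteins behaved unevenly. UBE2M, the NEDD8 enzyme that serves most cullins (Entrez 9040, chr19:59067079-59070321, minus strand, GRCh37), measured 124, 121 and 132 CPM in HUWE1-P, 108, 121 and 122 CPM in HUWE1-WT, and 142, 162 and 139 CPM in HUWE1-CS libraries. All HUWE1-CS libraries lay above all controls. UBE2M was called against HUWE1-WT cells, with a log2 fold change of 0.34 (95% interval 0.16 to 0.52, adjusted p = 0.00283), and not against HUWE1-P cells (0.23, 0.05 to 0.40, adjusted p = 0.0458). The call was lost with DESeq2 (adjusted p = 0.0236), without HUWE1-WT replicate 1 (0.0285) and without HUWE1-CS replicate 2 (0.0380).

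UBE2F, the NEDD8 enzyme of CUL5, measured 19.9 to 28.9 CPM in HUWE1-P, 24.3 to 33.1 CPM in HUWE1-WT and 22.5 to 28.9 CPM in HUWE1-CS libraries, and the 3 ranges overlap. Part of its exons is shared with a UBE2F-SCLY readthrough gene on the same strand. Of 15 measured cullin and NEDD8 pathway genes 1 was called in each comparison, 6.67% beside 17.0% and 15.5% of all genes. It was CUL4B, lower by 0.35 (adjusted p = 0.00336) and 0.33 (adjusted p = 0.00764) in HUWE1-CS cells against HUWE1-P and HUWE1-WT. This call held in 14 and 13 of 21 alternatives and was lost with DESeq2 and with the length trend removed. Against HUWE1-WT cells limma-voom did not call CUL4B either. The E1 subunit UBA3, which loads NEDD8 onto UBE2M and UBE2F, rose by 0.43 (adjusted p = 0.00456) and 0.47 (adjusted p = 0.00277). Its calls held in 16 and 18 of 21 alternatives, DESeq2 not among them. UBE2MP1, a processed pseudogene of UBE2M with a row of its own, gave 0.20 (SE 0.174) and -0.02 (SE 0.170) and was not called, and reads of UBE2M and this copy may be split in ways the table does not show.

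UBA2, the catalytic subunit of the SUMO E1, fell by 0.41 (adjusted p = 0.000110) and 0.39 (adjusted p = 0.000363) against HUWE1-P and HUWE1-WT cells. Of 15 measured SUMO ligases and proteases 1 was called against HUWE1-P and 2 against HUWE1-WT cells. These are 6.67% and 13.3% of the list, beside 17.0% and 15.5% of all genes. ZMIZ2 rose in both, by 0.45 and 0.48, calls that held in 18 (DESeq2 not among them) and 21 of 21 alternatives. The other gene called against HUWE1-WT cells was PIAS3, a SUMO ligase (0.69).

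The 4 UBE2D genes encode near-identical enzymes that serve many RING and HECT ligases, and none of them was called. Reads from coding stretches that these genes share could have been split or lost in the counting. UBE2D3 had the highest count among them, with 302, 313 and 311 CPM in HUWE1-P, 312, 320.1 and 321 CPM in HUWE1-WT, and 289.6, 299 and 269 CPM in HUWE1-CS libraries. Its HUWE1-CS libraries lay below all controls by a small margin, and the log2 fold changes were -0.11 (95% interval -0.24 to 0.02) and -0.15 (-0.29 to -0.02, adjusted p = 0.0938) against HUWE1-P and HUWE1-WT cells. UBE2D2 measured 109, 119 and 114 CPM in HUWE1-P, 96.2, 124 and 112 CPM in HUWE1-WT, and 106, 117 and 109 CPM in HUWE1-CS libraries, with intervals of -0.23 to 0.15 and -0.19 to 0.19.

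UBE2D1 measured 24.8, 31.4 and 31.3 CPM in HUWE1-P, 30.7, 33.8 and 27.9 CPM in HUWE1-WT, and 24.9, 29.5 and 27.3 CPM in HUWE1-CS libraries, which overlap. UBE2D4 was the member with the lowest level, at 5.59, 7.30 and 9.15 CPM in HUWE1-P, 6.95, 8.73 and 11.6 CPM in HUWE1-WT, and 7.12, 11.9 and 9.29 CPM in HUWE1-CS libraries. Its interval ran from -0.30 to 0.98 against HUWE1-P cells (SE 0.327), so that changes within that range are not excluded at this depth. For UBE2D2 and UBE2D3 the intervals exclude a log2 change of 0.3 in either direction against both controls.

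The UBE2E genes, close relatives of the UBE2D family with an extended N-terminus, gave log2 fold changes against HUWE1-P cells of -0.04 (UBE2E1), -0.02 (UBE2E2) and -0.09 (UBE2E3), and none was called. Over the 7 UBE2D and UBE2E genes edgeR, limma-voom and DESeq2 called 0, with 0 and 2 at an unadjusted p under 0.05 in edgeR against HUWE1-P and HUWE1-WT cells (UBE2D3 and UBE2E3). Against HUWE1-WT cells UBE2E3 gave -0.34 (95% interval -0.60 to -0.09, adjusted p = 0.0390). Its HUWE1-WT libraries, at 63.7 to 70.4 CPM, lay above all HUWE1-CS libraries, at 48.7 to 56.7 CPM, while the HUWE1-P libraries ranged from 49.1 to 68.5 CPM and overlapped both. UBE2E2 varied most among replicates of HUWE1-CS in this family, from 9.87 CPM in replicate 3 to 19.3 CPM in replicate 2.

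Of 26 measured HECT ligases other than HUWE1, 2 were called lower against HUWE1-P and 4 against HUWE1-WT cells. By edgeR, limma-voom or DESeq2 0 were called higher. The called shares were 7.69% and 15.4%, beside 17.0% and 15.5% of all genes. Of all genes 8.58% and 8.08% were called lower. NEDD4L fell by 0.67 (adjusted p = 0.000133) and 0.70 (adjusted p = 6.97e-05), and NEDD4 by 1.06 (adjusted p = 0.000588) and 0.89 (adjusted p = 0.00635); both ligases use UBE2D enzymes. The calls of NEDD4L held in all 21 alternatives and those of NEDD4 in 19 and 16. The other 2 genes called against HUWE1-WT cells were HERC1 (-0.64) and HERC3 (-1.44), picked out for that call, which held in 16 of 21 and 18 of 20 alternatives. DESeq2 called neither of them, and did not call NEDD4. Of 11 measured RBR ligases, the class that includes Parkin and works with UBE2L3, RNF19B was the only one called and rose by 0.83 (adjusted p = 6.82e-06) and 1.04 (adjusted p = 8.12e-08). That is 9.09% of the list in each comparison, beside 17.0% and 15.5% of all genes.

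UBE2A and UBE2B, the human RAD6 homologues, act with RAD18 on PCNA and with RNF20 and RNF40 on histone H2B. UBE2A measured 76.3, 80.8 and 71.3 CPM in HUWE1-P, 78.2, 71.4 and 77.9 CPM in HUWE1-WT, and 90.8, 87.3 and 84.2 CPM in HUWE1-CS libraries. Its HUWE1-CS libraries lay above all controls, yet the log2 fold changes of 0.20 (95% interval -0.01 to 0.41) and 0.21 (-0.01 to 0.42) were not called (adjusted p = 0.166 in both). UBE2B spread widely among HUWE1-CS libraries, at 51.6, 62.4 and 72.6 CPM beside 54.4 to 61.6 CPM in the controls. The ratio of UBE2A to UBE2B per length was 0.672 to 0.842 in the controls and 0.658 to 0.997 in HUWE1-CS libraries, which overlap. Exons of UBE2A overlap those of NKRF and STEEP1 on the opposite strand. Of 8 measured RAD6 partners 0 were called against either control by edgeR, limma-voom or DESeq2, with 0 and 1 at an unadjusted p under 0.05 in edgeR against HUWE1-P and HUWE1-WT cells.

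Members whose 3 HUWE1-CS libraries all lay beyond the 6 controls numbered 6: UBE2A, UBE2L6, UBE2M and UBE2Z above, and UBE2D3 and UBE2H below. Among all 11350 genes 12.9% lay above and 13.4% below. Of these 6 genes, UBE2A and UBE2D3 were called in neither comparison.

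UBE2N builds K63-linked chains together with an inactive partner, UBE2V1 or UBE2V2, and of this group UBE2N and UBE2V2 had a row. UBE2N measured 155 to 176 CPM in HUWE1-P, 167 to 178 CPM in HUWE1-WT, and 168 to 196 CPM in HUWE1-CS libraries. UBE2V2 measured 74.2, 87.3 and 117 CPM in HUWE1-CS libraries, with the lowest and the highest of its 9 values both in that line. Log2 fold changes of both genes lay between 0.05 and 0.09 in both comparisons and were not called. Of 12 measured K63 ligases HLTF, which acts on PCNA with UBE2N, rose by 0.59 (adjusted p = 7.44e-07) and 0.41 (adjusted p = 0.000562). PELI1, named because it was called, was called lower against HUWE1-P cells (-1.18, adjusted p = 0.00953). That call held in 10 of 20 alternatives, DESeq2 not among them. The shares called in this list were 16.7% and 8.33%, beside 17.0% and 15.5% of all genes.

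UBE2T is the E2 enzyme of the Fanconi anaemia pathway and ubiquitylates FANCD2 and FANCI with FANCL. It measured 51.5 to 63.4 CPM in HUWE1-P, 54.5 to 73.1 CPM in HUWE1-WT and 50.5 to 55.7 CPM in HUWE1-CS libraries, with log2 fold changes of -0.08 (SE 0.131) and -0.24 (SE 0.129). Neither was called. Of 13 measured Fanconi genes 0 were called in either comparison by edgeR, limma-voom or DESeq2, with 3 and 1 at an unadjusted p under 0.05 in edgeR.

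The group of K48 chain and endoplasmic reticulum enzymes held 6 genes. By edgeR, limma-voom and DESeq2 0 were called, and in edgeR 1 gene had an unadjusted p under 0.05 in each comparison, UBE2J2 against HUWE1-P and UBE2J1 against HUWE1-WT cells. UBE2K, which extends K48 chains, was steady, at 241 to 259 CPM in HUWE1-P, 238 to 246 CPM in HUWE1-WT and 246 to 258 CPM in HUWE1-CS libraries, with intervals of -0.13 to 0.15 and -0.08 to 0.20. UBE2R2, a cullin-RING partner, gave -0.02 (SE 0.0981) and -0.09 (SE 0.0978). UBE2G1 and UBE2G2 gave values between -0.18 and -0.05.

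UBE2J1 and UBE2J2, the membrane-anchored enzymes of protein quality control at the endoplasmic reticulum, were called in neither comparison. UBE2J2 measured 77.0, 74.1 and 72.8 CPM in HUWE1-P, 82.3, 85.1 and 87.2 CPM in HUWE1-WT, and 92.6, 85.6 and 93.5 CPM in HUWE1-CS libraries, so that both edited lines lay above the parental cells. Its log2 fold change was 0.28 against HUWE1-P (adjusted p = 0.0401) and 0.09 against HUWE1-WT cells. UBE2J1 measured 57.0 and 56.1 CPM in replicates 1 and 2 of HUWE1-CS and 81.9 CPM in replicate 3, beside 67.0 to 84.9 CPM in the controls. Its log2 fold change against HUWE1-WT cells was -0.30 (SE 0.120, adjusted p = 0.0539), and without HUWE1-CS replicate 3 it was called at -0.49 (adjusted p = 0.00326). The ratio of UBE2J1 to UBE2J2 per length was 1.03 to 1.14 in the controls and 0.693, 0.739 and 0.987 in HUWE1-CS libraries, below all controls. Of 17 measured genes of endoplasmic reticulum-associated degradation 1 was called against each control, 5.88% beside 17.0% and 15.5% of all genes. AUP1 was higher against HUWE1-P (0.39) and SEL1L lower against HUWE1-WT cells (-0.42), both picked out for that call. The call of AUP1 held in all 21 alternatives and that of SEL1L in 17, DESeq2 not among them.

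The remaining members are less studied or stand alone. UBE2Q1 measured 81.9 to 98.7 CPM in HUWE1-CS libraries and 74.6 to 86.6 CPM in the controls. Its paralogue UBE2Q2 measured 30.3, 24.4 and 13.9 CPM in HUWE1-CS libraries, the widest relative spread of any member in that line (36.2% of the mean). UBE2O, a large enzyme with E2 and E3 functions in 1 protein, gave -0.06 (SE 0.0872) and 0.07 (SE 0.0890). UBE2W, which attaches ubiquitin to the N-terminus of substrates, measured 55.9, 53.3 and 49.6 CPM in HUWE1-P, 49.3, 63.8 and 57.0 CPM in HUWE1-WT, and 67.6, 63.5 and 73.7 CPM in HUWE1-CS libraries. It gave 0.37 (95% interval 0.13 to 0.62, adjusted p = 0.0190) and 0.27 (0.02 to 0.51, adjusted p = 0.112) and was called in neither comparison.

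**Figure D2:**
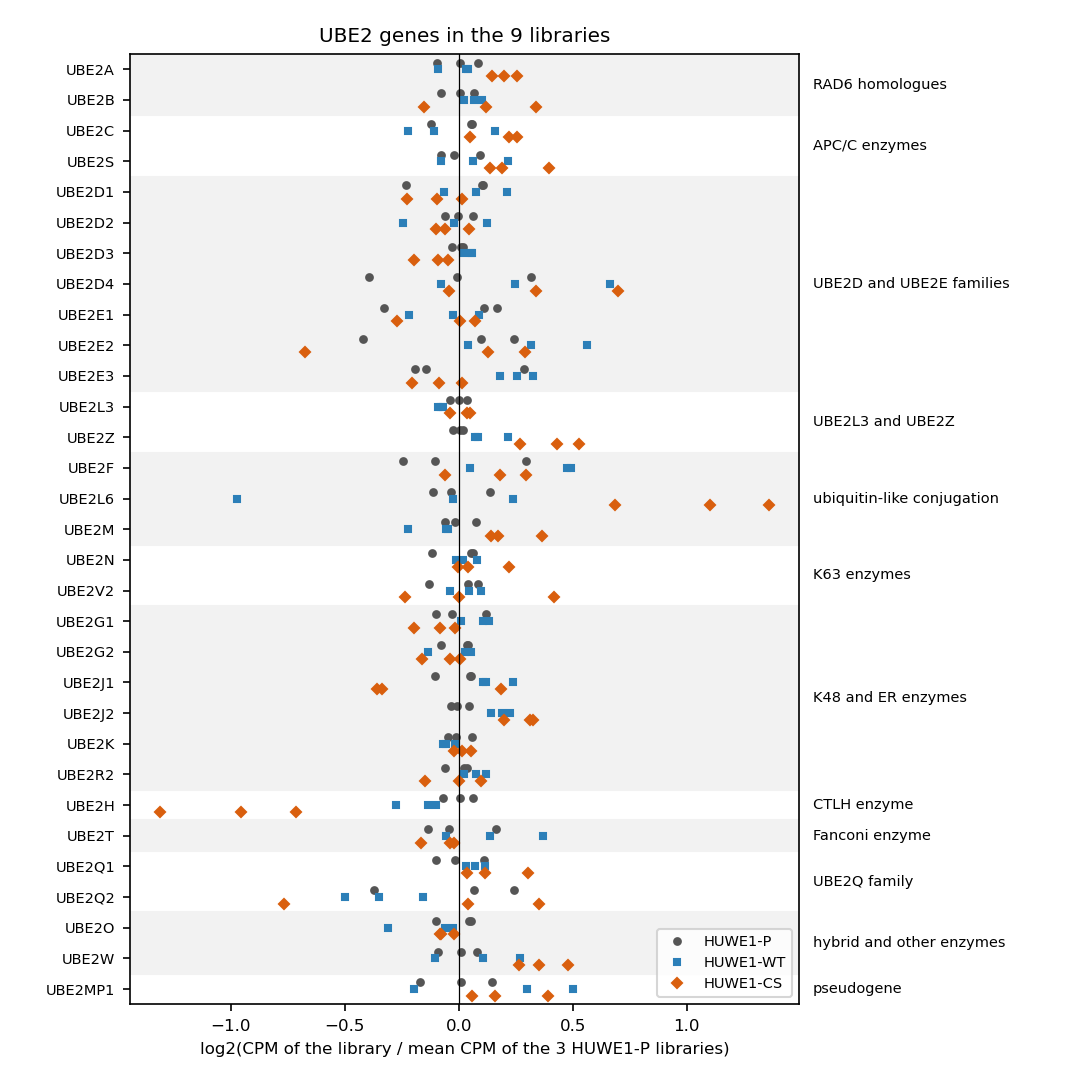
Level of 31 UBE2 genes in each library, as the log2 ratio of its CPM to the mean CPM of the 3 HUWE1-P libraries, grouped by role; each symbol is 1 library. UBE2H and UBE2L6 are the genes whose HUWE1-CS libraries stand farthest from both controls, and most other members lie near 0 in all 3 lines.

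**Figure D3:**
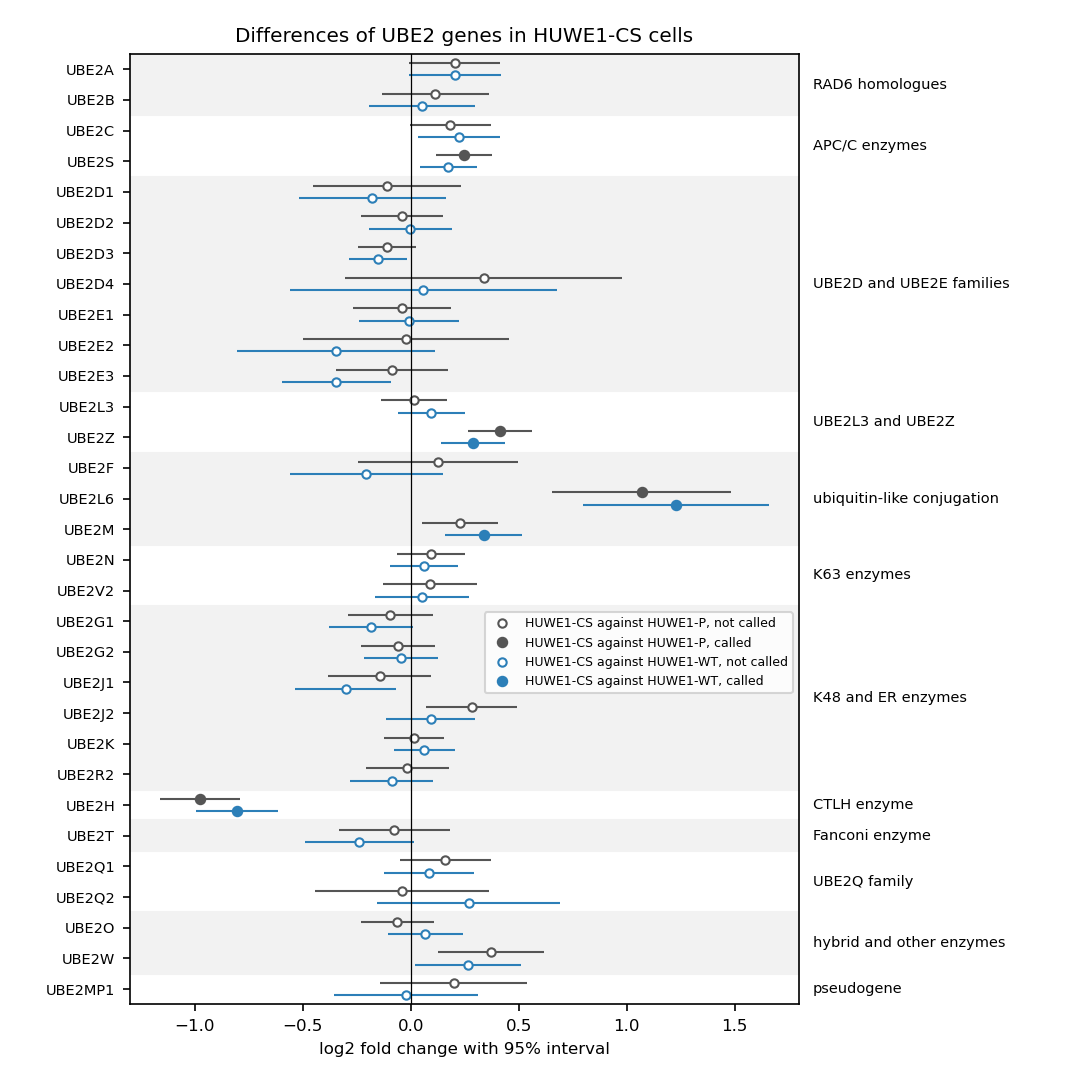
Log2 fold changes of 31 UBE2 genes in HUWE1-CS cells against HUWE1-P and against HUWE1-WT cells with 95% intervals from the SE; filled symbols passed the test. In each comparison 4 genes are filled, and UBE2H, UBE2L6 and UBE2Z are filled in both.

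In the member genes the edited control differed little from the parental line, while the mRNA of HUWE1 itself was lower in it, as given above. In HUWE1-WT against HUWE1-P cells 0 of 32 members were called, beside 0.0617% of all genes (7 of 11350). With edgeR, 1 member, UBE2E3, had an unadjusted p below 0.05 (adjusted p = 0.883, log2 fold change 0.26, SE 0.126), and limma-voom and DESeq2 also called 0 members. The log2 fold changes of the members ran from -0.31 (UBE2Q2) to 0.33 (UBE2F). The comparisons of HUWE1-CS with HUWE1-P and with HUWE1-WT share the HUWE1-CS libraries and are not independent.

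Counts of all members together made up 3636, 3677 and 3576 CPM in HUWE1-P, 3514, 3782 and 3726 CPM in HUWE1-WT, and 3696, 3820 and 3724 CPM in HUWE1-CS libraries. All HUWE1-CS libraries lay above all HUWE1-P libraries by a small margin, while HUWE1-WT libraries overlapped both, and the difference was not tested. The means were 3630 ± 50.7, 3674 ± 141 and 3747 ± 65.2 CPM (SD, n = 3 each). The median coefficient of variation of the members was 6.55% in HUWE1-P, 6.49% in HUWE1-WT and 8.42% in HUWE1-CS libraries, below that of all genes (10.2%, 10.4% and 11.01%). Replicate 1 of HUWE1-WT held the lowest value of its line for 20 of 32 members, and its part in the calls against HUWE1-WT cells is given by the fits without it. Since RNA came from whole cultures, a lower level can mean less RNA per cell or fewer cells that express the gene, and the libraries do not tell these apart.

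Levels of different genes were compared per kilobase of exon, counted as the union of all annotated exons of a gene in GENCODE on GRCh37. UBE2S was the highest member in HUWE1-P cells at 170.1 ± 10.5 CPM per kb, followed by UBE2C (88.8 ± 6.17) and UBE2M (72.2 ± 3.49), and these neighbours in the order did not overlap beyond their SDs. After the pseudogene row UBE2MP1, UBE2K and UBE2L3 followed at 48.1 ± 1.81 and 45.5 ± 1.13 CPM per kb. From UBE2N at 28.3 ± 1.94 through UBE2H at 27.7 ± 1.25 and UBE2D2 at 27.4 ± 1.17 CPM per kb the neighbours lay within their SDs. The lowest members were UBE2E2 (4.86 ± 1.10) and UBE2D4 (1.56 ± 0.378 CPM per kb).

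In HUWE1-CS cells UBE2H stood at place 25 of 32 instead of 11, at 14.1 ± 2.86 CPM per kb. UBE2J2 stood at place 17 instead of 23, and UBE2L6 at place 22 instead of 27, at 15.1 ± 3.45 CPM per kb. The place of a gene depends on the length used. With the length of the canonical transcript in place of the exon union, UBE2A stood at place 14 instead of 25 in HUWE1-P cells, while UBE2S, UBE2C and UBE2M stayed the highest and UBE2D4 the lowest.

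**Figure D4:**
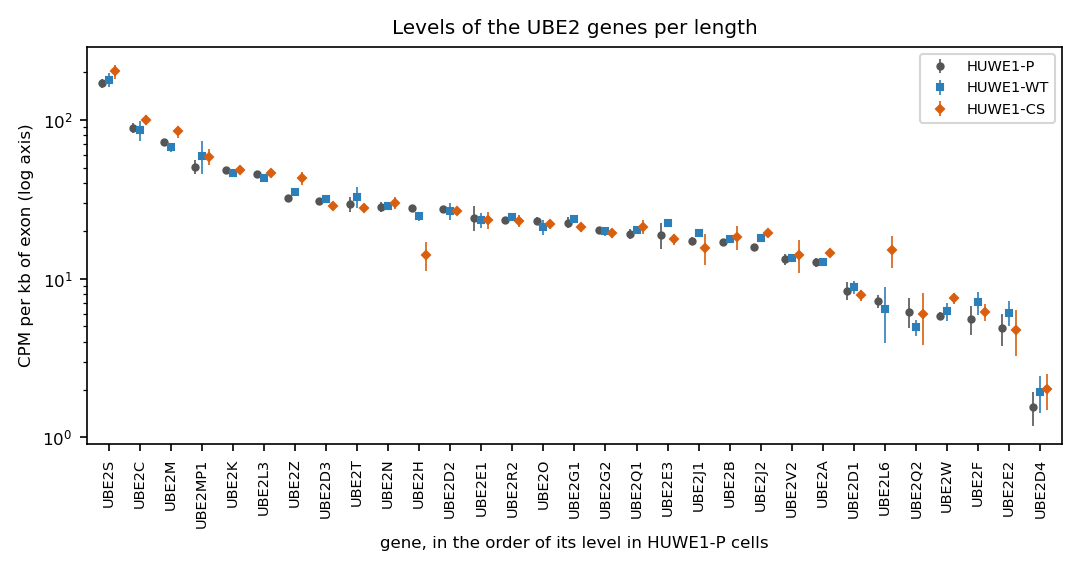
Mean CPM per kb of exon with its SD over 3 libraries (log axis) of 31 UBE2 genes in each of the 3 lines, in the order of the level in HUWE1-P cells. UBE2S leads at 170.1 and UBE2D4 is lowest at 1.56 CPM per kb in HUWE1-P cells, and UBE2H and UBE2L6 leave the order of their neighbours in HUWE1-CS cells.

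Fold changes in this table moved with gene length, and this bears on the short members. In the comparison with HUWE1-P cells the median was 0.16 on the log2 scale over the 441 genes with up to 1500 exonic bases and -0.10 over the 1151 genes above 12000. UBE2S, UBE2M and UBE2C have exon unions of 2799, 1743 and 1286 bases. With the trend over length removed, UBE2S against HUWE1-P cells gave 0.17 (adjusted p = 0.0250) and UBE2M against HUWE1-WT cells 0.23 (adjusted p = 0.0438), and neither was called. UBE2C fell to 0.02 against HUWE1-P cells. UBE2W, with 9091 exonic bases, gave 0.43 and was then called (adjusted p = 0.00561). UBE2H, UBE2L6 and UBE2Z kept their calls in both comparisons. The 10 genes nearest to UBE2S, UBE2C and UBE2A had medians of 0.22, 0.35 and 0.22 against HUWE1-P cells, beside 0.25, 0.18 and 0.20 for these genes themselves, and the part of length or position in the results was not tested further.

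Ubiquitin itself and the E1 enzymes that feed the members complete the pathway. Of 16 measured genes for ubiquitin and ubiquitin-like proteins 4 were called higher and 0 lower against HUWE1-P cells, and 5 higher and 0 lower against HUWE1-WT cells, with medians of 0.22 and 0.16. UBB, a polyubiquitin gene, rose from 1332 ± 21.9 CPM in HUWE1-P and 1411 ± 102 CPM in HUWE1-WT to 1758 ± 40.6 CPM in HUWE1-CS cells (SD, n = 3 each), with log2 fold changes of 0.40 (adjusted p = 3.56e-09) and 0.32 (adjusted p = 2.12e-06). FAU, which encodes a ubiquitin-like protein fused to a ribosomal protein, rose by 0.33 and 0.37. RPS27A, which encodes ubiquitin fused to another ribosomal protein, rose by 0.24 and 0.26. Calls of UBB held in all 21 alternatives, those of FAU in 19 and 21, and those of RPS27A in 15 and 17. DESeq2 called RPS27A in neither comparison. FAU and RPS27A were not called against HUWE1-P cells with the length trend removed. ISG15 was also called against HUWE1-WT cells, as given above. Of 9 measured E1 genes UBA3 rose and UBA2 fell, as given above. These are 22.2% of the list in each comparison, beside 17.0% and 15.5% of all genes. TSG101, an E2-like protein without catalytic activity, rose by 0.55 (adjusted p = 0.000358) and 0.57 (adjusted p = 0.000280), and was the gene called in both comparisons among 8 measured genes of other E2-fold proteins. UFC1, the E2 enzyme of UFM1, was called against HUWE1-WT cells (0.45), a call that held in 12 of 21 alternatives.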

How the data were processed

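Libraries were grouped by the line and replicate number in the sample labels. Per the labels and the study's methods, poly(A) RNA was used, reads were demultiplexed with bcl2fastq 2.20 and mapped with STAR 2.5.4 to hg19, and the authors deposited raw counts for each gene. The counting tool, its annotation and its use of strand are not given in the sources used here. Deposited tables of the authors' own comparisons (log2 fold change, mean log2 CPM, F, p-value and FDR) were not used.

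Counts were normalized by TMM and tested with edgeR 4.0.16 in R 4.3.3 (glmQLFit with the earlier estimator, legacy = TRUE, since the labels name edgeR 3.26.8; glmQLFTest; line as the only term; 9 libraries). P-values were adjusted by Benjamini-Hochberg over 11350 genes, and genes were called at p and adjusted p of at most 0.01. The SE of a log2 fold change is its size divided by the root of F. No gene was removed. Positions and exon lengths came from GENCODE on GRCh37, where 11049 genes were placed, the 32 members among them. Alternatives were DESeq2 1.42.0, limma-voom (limma 3.58.1), other scalings, a count filter, a replicate block, removal of a length trend, and the omission of each library. The procedure was tested on simulated data. Tables and figures were made with Python 3.11.15, pandas 2.3.3 and matplotlib 3.10.9.

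Members are named by role, except 1 that, like 1 gene of a pathway list, is not reported here but is counted in the totals; full values are given for members called in either HUWE1-CS comparison, UBE2L3, the UBE2D genes and the highest and lowest members; from each pathway list up to 3 genes called in both HUWE1-CS comparisons are named, by the smallest p against HUWE1-P. Other genes were named after their values were seen. The members and lists were chosen with earlier results of these data known. Replicates of a line differed by more than sampling noise (chi-square per degree of freedom 1.16 to 1.65), so all 9 libraries were kept. UBE2NL, UBE2QL1, UBE2U and UBE2V1 were not analysed here.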

Additional observations from a re-analysis of the deposited data

How the results depend on the processing

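UBE2H and UBE2L6 kept their direction and their call in both HUWE1-CS comparisons under all 21 alternatives, and UBE2Z kept both against HUWE1-P cells. The number of members called higher against HUWE1-P cells rose from 3 to 6 with an FDR of at most 0.05 (UBE2J2, UBE2M and UBE2W were added). Against HUWE1-WT cells it fell from 3 to 1 with DESeq2, where UBE2L6 was left, and lay between 1 and 4 when single libraries were omitted, with 1 without HUWE1-WT replicate 1. The number called lower against HUWE1-WT cells rose from 1 to 2 with an FDR of at most 0.05 (UBE2E3) and lay between 1 and 2 when single libraries were omitted, with 2 without HUWE1-CS replicate 3 (UBE2J1). The cause was not tested. The filter on 10 counts in every library leaves out UBE2D4. The median log2 fold change of the members against HUWE1-P cells moved by less than 1 SD between libraries in every alternative. No called direction was reversed. Among 2015 values of single genes under the alternatives, 15 lost their call, 9 gained one, 1 moved and 1990 did neither. Most of these values belong to genes not called in the main fit, which had no call to lose. The losses fell on UBE2S against HUWE1-P cells and on UBE2M and UBE2Z against HUWE1-WT cells. These calls held in 15, 16 and 17 of 21 alternatives.

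Same-numbered libraries of different lines showed no clear shared deviation (correlations of -0.02 to 0.06, 0 of 9 above 0.1). A small effect shared by replicate number is not excluded, since noise within a line could hide it. With the replicate number as a block, 3 members were called higher and 1 lower against HUWE1-P cells and 3 higher and 1 lower against HUWE1-WT cells, as without the block. Chosen after seeing the data, the canonical transcript length gave UBE2S 186 CPM per kb in HUWE1-P cells. At these depths a member near 10 CPM had an SE of about 0.3 on the log2 scale, and most members had an SE near 0.1.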
